A study of Mus musculus with 8 samples.

Results

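Metabotropic glutamate receptors and the GABA-B receptor are the G protein-coupled receptors through which the brain's main excitatory and main inhibitory transmitters act slowly, and 9 of their genes (Grm2, Grm3, Grm4, Grm5, Grm6, Grm7, Grm8, Gabbr1 and Gabbr2) were followed across the lateral septum of the mouse. The genes were chosen by symbol, and all 9 were found among the 24972 symbols listed for each library. RNA of 8 of them reached 1 TPM (transcripts per 1000000, a level scaled to transcript length) in every library and was tested among 14365 genes. Grm6, which in mammals is known mainly from retinal ON bipolar cells, was listed at 0 TPM in all 8 libraries and was not tested.

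The libraries came from C57BL/6J mice without a transgene or Cre line, so no promoter limited the capture to a cell type, and the study used males and females of 8 to 20 weeks. In PhosphoTrap an antibody pulls down ribosomes whose protein S6 is phosphorylated (pS6), as happens in active cells. The 8 libraries fell into 4 groups of 2: pS6 immunoprecipitate (IP) of restraint-stressed (RS) mice, IP of naive mice, whole-lysate input of RS mice and input of naive mice. RS mice had been held in a plastic cone for 1 h, naive mice had stayed in their home cage, and each library was made from the pooled septa of 4 to 6 mice. Each IP was assumed to share its pool with the equally numbered input of its condition. Fits with the pool as a block rest on that assumption.

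Glutamate at Grm5, a group I receptor, acts through Gq and phospholipase C to release calcium from stores. The group II receptors (Grm2 and Grm3) and the group III receptors (Grm4, Grm6, Grm7 and Grm8) couple to Gi/o, lower cyclic AMP and, at presynaptic terminals, reduce transmitter release. Grm3 is also made by astrocytes, and Grm7 sits in the active zone and needs high glutamate to respond. GABA-B receptors work only as a pair, in which the Gabbr1 subunit binds GABA and the Gabbr2 subunit couples to Gi/o, which opens GIRK potassium channels and closes calcium channels. The lateral septum consists mostly of GABAergic neurons that receive glutamatergic input from the hippocampus.

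The stretch of 100 bases ahead of the transcription start is shown for Grm2 and Grm3, whose RNA was higher in RS than in naive input. It is also shown for Gabbr1, the most abundant of these RNAs, which was not called there. Gabbr2 was called higher in RS input as well, and its stretch is not printed. Sequences are from RefSeq (GRCm38.p6), read 5′ to 3′ on the strand of the gene, and capitals mark each GC box (GGGCGG).
Grm2 (chr9:106656110-106656209, minus strand): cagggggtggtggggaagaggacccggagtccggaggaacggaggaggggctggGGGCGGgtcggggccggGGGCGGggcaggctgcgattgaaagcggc
Grm3 (chr5:9725353-9725452, minus strand): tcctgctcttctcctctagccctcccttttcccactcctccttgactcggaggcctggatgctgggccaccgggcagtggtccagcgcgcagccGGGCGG
Gabbr1 (chr17:37045866-37045965, plus strand): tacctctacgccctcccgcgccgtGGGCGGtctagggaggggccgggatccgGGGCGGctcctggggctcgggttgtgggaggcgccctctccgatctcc

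These stretches were 76% (Grm2), 68% (Grm3) and 75% (Gabbr1) G or C. That of Gabbr2 was 79% G or C and held 1 GC box. RefSeq windows of 250 bases before to 50 after the start were matched for 7 of the 9 genes (10 windows, all but Grm4 and Grm5) and searched on both strands. A GC box stood in 7 of the 10 windows, belonging to Grm2, Grm3, Grm7, Grm8, Gabbr1 and Gabbr2, and in 35.7% of 32851 windows of all genes. The cAMP response element TGACGTCA stood in 0 of the 10 windows and in 1.79% of all windows, and the glucocorticoid response element (AGAACA, any 3 bases, then TGTTCT) stood in 0 of the 10 and in 0.00913% of all. The AP-1 site TGANTCA stood in 1 window, that of Grm8, and in 7.81% of all. These matches describe the letters of the windows only.

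Each library listed 17292 to 17516 genes above 0, and 2 libraries of a group had a Pearson's r of 0.988 to 0.992 between their log2 levels, across genes that are not independent replicates. The tissue label was checked against 6 lateral septum markers (Trpc4, Crhr2, Nts, Zic1, Zic2 and Zic4). None was at 0 in all libraries, 5 reached 1 TPM, and their summed level was 82.1 to 95.7 TPM in RS IP, 70.2 to 71.8 TPM in naive IP, 49.9 to 51.7 TPM in RS input and 63.1 to 63.8 TPM in naive input. Without Nts, a gene the study singled out in these libraries, the other 5 summed to 32.4 to 33.9 TPM in RS IP, 40.3 to 40.4 TPM in naive IP, 30.1 TPM in both RS inputs and 37.5 to 38.9 TPM in naive input, lower in RS than in naive mice in both fractions. The libraries also held RNA of neighbouring cells. Summed markers of striatal projection neurons were 2225 to 2349 TPM in RS IP, 2296 to 2346 TPM in naive IP, 2509 to 2646 TPM in RS input and 1900 to 1959 TPM in naive input, and summed choroid plexus markers were 2068 to 2080 TPM in RS IP, 35.2 to 35.5 TPM in naive IP, 279 to 334 TPM in RS input and 15.3 to 16.7 TPM in naive input.

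Gabbr1 (chromosome 17, 37045966 to 37075067, GRCm38) was the most abundant of the 9 RNAs in every group. It stood at 77.7 and 86.5 TPM in RS IP, 80.9 and 90.7 TPM in naive IP, 107 and 80.5 TPM in RS input and 89.3 and 88.2 TPM in naive input. Its partner Gabbr2 (chromosome 4, 46662305 to 46991873) was far lower, at 5.90 and 6.79 TPM in RS IP, 5.31 and 5.38 TPM in naive IP, 9.79 and 9.09 TPM in RS input and 6.04 and 6.68 TPM in naive input. The RNAs of the obligate GABA-B pair thus stood far apart in all 8 libraries, with the highest Gabbr2 level in RS input.

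Among the metabotropic glutamate receptors, the group II gene Grm3 (chromosome 5, 9485541 to 9725170) led in every group. It was listed at 44.7 and 40.8 TPM in RS IP, 32.7 and 32.3 TPM in naive IP, 50.1 and 47.7 TPM in RS input and 36.3 and 33.8 TPM in naive input. Both RS groups lay above both naive groups. Grm4 (chromosome 17, 27422387 to 27521403), a group III presynaptic receptor, followed at 15.6 and 16.1 TPM in RS IP, 16.3 and 19.4 TPM in naive IP, 18.5 and 15.6 TPM in RS input and 17.1 and 14.7 TPM in naive input. The order Gabbr1, Grm3, Grm4 held in all 4 groups with no overlap between neighbours in the order.

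The other 5 RNAs lay between 4.39 and 12.8 TPM and changed places between fractions. Grm7 (chromosome 6, 110645581 to 111567230) was at 6.02 and 5.19 TPM in RS IP, 5.46 and 6.36 TPM in naive IP, 12.8 and 11.4 TPM in RS input and 10.0005 and 8.60 TPM in naive input. Grm8 (chromosome 6, 27275119 to 28135178), the other group III receptor of this range, was at 6.60 and 5.72 TPM in RS IP, 6.29 and 7.83 TPM in naive IP, 10.2 and 12.03 TPM in RS input and 8.63 and 8.37 TPM in naive input. For both genes, both IP libraries lay below both inputs in each condition. Grm2 (chromosome 9, 106643095 to 106656082), the group II autoreceptor, was at 7.94 and 9.77 TPM in RS IP, 7.24 and 6.60 TPM in naive IP, 9.26 and 6.96 TPM in RS input and 4.58 and 5.91 TPM in naive input. Grm5 (chromosome 7, 87584168 to 88134907) was at 4.85 and 4.39 TPM in RS IP, 4.96 and 5.08 TPM in naive IP, 7.45 and 6.99 TPM in RS input and 5.82 and 6.11 TPM in naive input. Grm2 was lowest in naive input. For Grm5, as for Grm7 and Grm8, both IP libraries lay below both inputs in each condition. Within a condition, 62.5% (RS) and 59.5% (naive) of all genes tested had both IP libraries below both inputs.

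In RS IP the order below Grm4 was Grm2, Gabbr2, Grm8, Grm7 and Grm5, where Gabbr2 and Grm8 and then Grm8 and Grm7 overlapped between their libraries. In naive IP it was Grm8, Grm2, Grm7, Gabbr2 and Grm5, where Grm8 and Grm2 overlapped. In both inputs Grm7 and Grm8 came next after Grm4 and overlapped with each other. In RS input Gabbr2, Grm2 and Grm5 followed, and in naive input Gabbr2, Grm5 and Grm2, and within each of these trios neighbours overlapped.

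**Figure D1:**
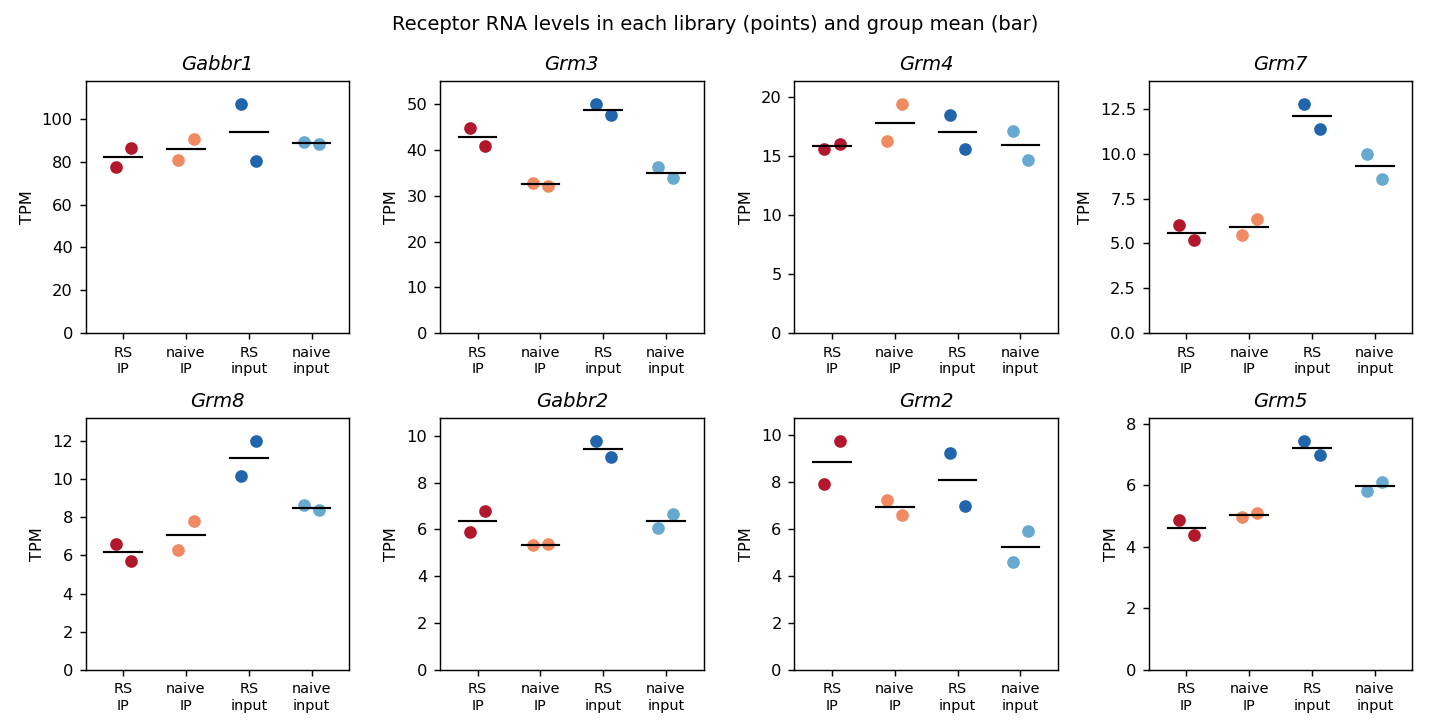
TPM (vertical axis, from 0) of the 8 receptor RNAs that were detected, in the 2 libraries of each group (points) and as the group mean (bar). Grm3 lay higher in both RS groups than in the naive ones. Grm3, Grm5, Grm7, Grm8 and Gabbr2 lay lower in both IP libraries than in both inputs of the same condition. So did 62.5% (RS) and 59.5% (naive) of all genes tested.

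The first question of the design was which RNAs were enriched on pS6 ribosomes relative to the lysate. None of the 8 receptor RNAs was called higher in IP than in input (adjusted p under 0.05, limma), in RS or in naive mice, where 17.8% (RS) and 17.4% (naive) of all genes were. In RS mice, 5 of 8 were called lower in IP, against 54.9% of all genes tested. In naive mice 1 of 8 was called lower, against 49.2%. In each condition 5 of 8 (Grm3, Grm5, Grm7, Grm8 and Gabbr2) had both IP libraries below both inputs, as 62.5% (RS) and 59.5% (naive) of all genes did. The receptor RNAs had a median log2 change of -0.35 in RS mice, where all genes tested had a median of -0.42, and of -0.16 in naive mice, where all genes had -0.32. In such bulk tissue, fewer cells of a type and less RNA per cell cannot be told apart.

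Grm7 was the most depleted receptor. Its log2 change, IP over input on log2(TPM + 1), was -0.99 ± 0.13 (SE, adjusted p = 0.000196) in RS mice and -0.57 ± 0.13 (adjusted p = 0.00464) in naive mice, and its mean TPM in IP was 0.464 (RS) and 0.636 (naive) of that in input. Grm8 fell by 0.75 ± 0.14 on the log2 scale in RS mice (adjusted p = 0.00119). In naive mice its change was -0.24 (95% interval -0.56 to 0.07), which did not pass. Grm4, the third group III receptor with RNA, passed in neither condition, at -0.10 (interval -0.38 to 0.19) in RS and 0.16 (interval -0.13 to 0.44) in naive mice.

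Grm5 was lower in IP of RS mice by a log2 change of -0.55 ± 0.11 (adjusted p = 0.00185), and in naive mice it stood at -0.21 (adjusted p = 0.113). Gabbr2 was lower in IP of RS mice, at -0.51 ± 0.11 (adjusted p = 0.00356), and stood at -0.21 (adjusted p = 0.129) in naive mice, while Gabbr1 stood at -0.18 (adjusted p = 0.237) in RS and -0.05 (adjusted p = 0.737) in naive mice. Without RS input 2 Gabbr1 was called lower in IP of RS mice (-0.38, adjusted p = 0.0102), and without RS input 1 it stood at 0.026 (adjusted p = 0.826). Grm3 passed narrowly in RS mice, at -0.19 ± 0.08 (adjusted p = 0.0494). With the pool as a block its adjusted p was 0.0581, and it no longer passed without any one of 7 of the 8 libraries (adjusted p of 0.0616 to 0.242, all but RS IP 1). Grm2 was the one receptor with a positive change in both conditions, at 0.12 (adjusted p = 0.546) in RS and 0.35 (adjusted p = 0.0994) in naive mice. In naive mice both IP libraries of Grm2 lay above both inputs, a separation seen in 24.3% of all genes tested.

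The depletion of several receptors depended on the scale. Dividing each library by its median ratio to the geometric mean over genes (median-of-ratios scaling) put the median change of all genes at 0.01 in place of -0.42 in RS and 0.00 in place of -0.32 in naive mice, and the share of higher among called genes at 51.7% in place of 24.5% in RS and 51.8% in place of 26.2% in naive mice. Relative to the median of all genes, Grm7 was at -0.56, Grm8 at -0.33, Grm5 at -0.13, Gabbr2 at -0.09, Grm3 at 0.23, Gabbr1 at 0.25, Grm4 at 0.33 and Grm2 at 0.54 in RS mice. Under that scaling Grm7 alone was called lower in RS mice (-0.53, adjusted p = 0.00618). Grm2 (0.57, adjusted p = 0.0144), Grm4 (0.39, 0.02), Gabbr1 (0.33, 0.0353) and Grm3 (0.31, 0.00619) were called higher. In naive mice Grm2, Grm3, Grm4 and Gabbr1 were called higher under it and none lower, Grm7 standing at -0.24 (adjusted p = 0.13). Of 14365 genes tested, the same scaling called 4795 higher and 4477 lower in RS mice and 4432 and 4117 in naive mice.

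Transcript length also moved with IP over input. Across 14240 genes with an annotated length, Spearman's rho between log2 change and length was -0.55 in RS and -0.44 in naive mice. In RS mice genes with transcripts of at least 4455 nt (the longest 25%) had a median change of -0.85 and those of at most 1849 nt (the shortest 25%) one of 0.24. The longest coding transcripts of the receptors ran from 3049 nt (Grm3), 3856 nt (Grm8) and 4197 nt (Grm7) through 4607 nt (Grm4), 4711 nt (Grm2), 5248 nt (Gabbr1) and 5750 nt (Gabbr2) to 8047 nt (Grm5). After correction for length and GC content, 6 receptors were called higher in IP in RS mice and 6 in naive mice. Of 14240 genes so corrected, 3821 were called higher and 4634 lower in RS mice, and 3590 and 4372 in naive mice. Grm7 stayed lower in RS mice, at -0.33 (adjusted p = 0.0429; 0.0704 with the pool as a block as well), and was at -0.10 (adjusted p = 0.512) in naive mice. Oligodendrocyte markers, 8 genes, summed to 2703 to 2767 TPM in RS IP, 2568 to 2626 TPM in naive IP, 8148 to 8741 TPM in RS input and 6800 to 6886 TPM in naive input, and 5 cortical glutamatergic markers summed to 123 to 127, 125 to 129, 212 to 219 and 162 to 164 TPM in the same groups. Their part in the receptor changes was not tested.

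**Figure D2:**
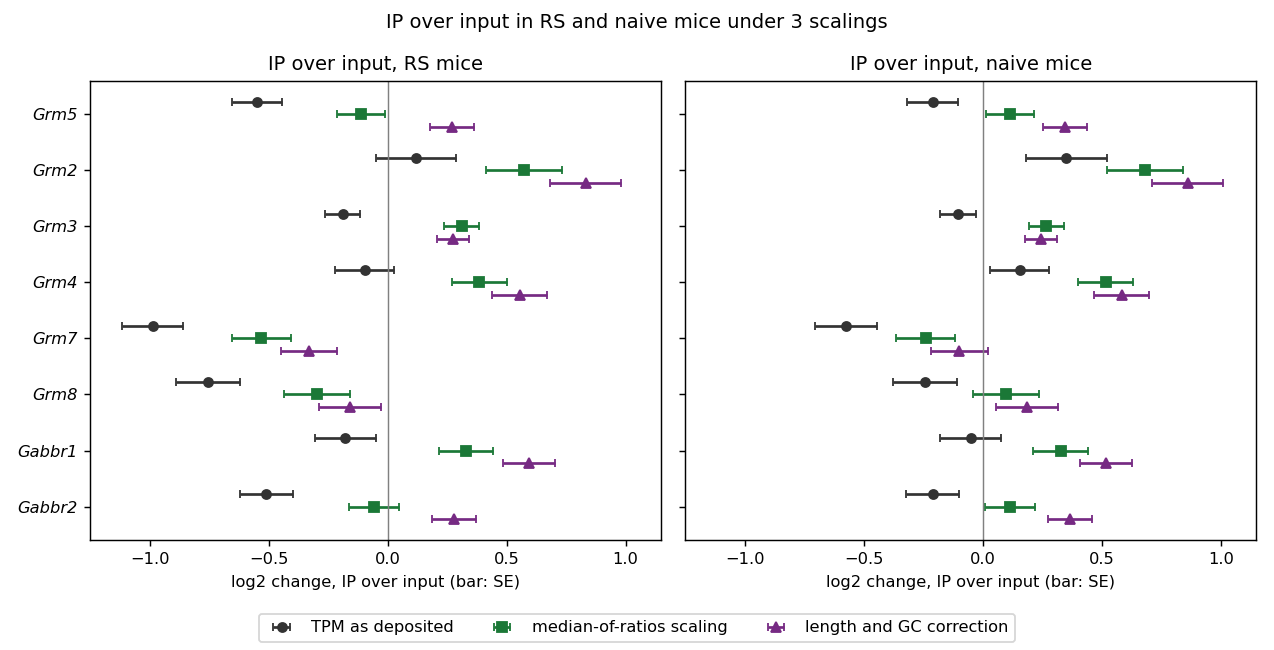
Log2 change of IP over input (horizontal axis, bar: SE) of 8 receptor RNAs in RS and naive mice, on the TPM as deposited, after median-of-ratios scaling and after length and GC correction. Grm7 lay below 0 under all 3 in both conditions, and Grm2 above 0, whereas the other 6 changed side between scales in at least 1 condition.

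Whether restraint changed the IP enrichment was asked by the difference between the RS and naive ratios of IP to input. No receptor passed (limma, 0 of 8 in either direction, against 3.29% higher and 3.46% lower of all genes tested), and 1 of 8 had an unadjusted p under 0.05. All 8 differences were below 0, from -0.08 (Grm3) to -0.51 (Grm8), with a median of -0.27 beside -0.11 over all genes, and Gabbr1 and Grm3 turned to 0.00 and 0.04 under median-of-ratios scaling. Grm8 had the largest, at -0.51 (interval -0.96 to -0.07, adjusted p = 0.14), followed by Grm7 at -0.41 (interval -0.83 to 0.01, adjusted p = 0.198) and Grm5 at -0.34 (adjusted p = 0.202). Being called lower in RS mice alone, Grm8, Grm5, Gabbr2 and Grm3 were thus not shown to differ between the conditions. With the pool as a block, 0.543% of all genes were called in place of 6.75%, and again no receptor.

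In whole lysate, 3 of 8 receptor RNAs were called higher in RS than in naive mice and 0 lower, against 20.3% higher and 8.21% lower of all genes tested. Both group II receptors and Gabbr2 made up the 3. Grm3 was higher by a log2 change of 0.47 ± 0.08 (adjusted p = 0.0043), with a mean TPM in RS input 1.40 times that in naive input. Its call held under each alternative run, with adjusted p between 0.00223 and 0.0338, and it was at 0.32 under median-of-ratios scaling, where the median of all genes was 0.00 in place of 0.13 and the share of higher among called genes 39.1% in place of 71.2%.

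Gabbr2 was higher in RS input by 0.51 ± 0.11 (adjusted p = 0.0139), a mean TPM 1.49 times that of naive input. It did not pass without RS input 1 (adjusted p = 0.0801), without naive input 1 (0.0868) or after length and GC correction (0.23, adjusted p = 0.158). Grm2 was higher by 0.54 ± 0.17 (adjusted p = 0.0461), with a mean TPM 1.55 times that of naive input. It passed without RS input 2 (0.0315), did not pass without any other single library (adjusted p of 0.0529 to 0.238) and stood at 0.40 (adjusted p = 0.119) under median-of-ratios scaling and 0.28 (adjusted p = 0.259) after length and GC correction.

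The remaining receptors had positive changes in RS input that did not pass, at 0.35 (adjusted p = 0.0793) for Grm7, 0.34 (0.0926) for Grm8, 0.24 (0.13) for Grm5, 0.09 (0.598) for Grm4 and 0.06 (0.735) for Gabbr1, and Gabbr1 and Grm4 were below 0 under median-of-ratios scaling (-0.08 and -0.04). In 6 of 8 receptors both RS inputs lay above both naive inputs, as in 48.8% of all genes tested. The median over the 8 was 0.35, beside 0.13 over all genes. Of the 6 striatal markers, whose sums lay higher in RS than in naive input as given above, 3 were called higher and 0 lower. Of all genes tested, 20.3% were called higher and 8.21% lower. Most of the striatal sum was Ppp1r1b, at 2375 and 2272 TPM in RS input and 1697 and 1755 TPM in naive input. Oligodendrocyte (6 of 8), cortical glutamatergic (3 of 5) and microglial (3 of 6) markers were also called higher, with 0 lower. Lateral septum markers gave 0 higher and 2 lower of 5 tested, and ependymal markers 0 higher and 1 lower of 4. Choroid plexus markers gave 4 higher of 6, oligodendrocyte precursor markers 2 of 5 and GABAergic markers 1 of 3, with 0 lower. Pan-neuronal markers gave 4 higher and 2 lower of 8, and endothelial markers 0 higher and 1 lower of 2 tested. Medial septal cholinergic markers gave 0 of 2 tested. The part of these markers in the receptor changes was not tested.

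On pS6 ribosomes, Grm3 was the one receptor called higher in RS than in naive IP (1 of 8, against 1.98% of all genes tested), and 0 were called lower (against 0.327%). Its change was 0.38 ± 0.08 (interval 0.21 to 0.56, adjusted p = 0.0443), and its mean TPM in RS IP was 1.32 times that in naive IP. The size moved little with scaling (0.37 under median-of-ratios scaling, adjusted p = 0.0481), but the call was lost on leaving out any one of the 8 libraries, with adjusted p of 0.0569 to 0.196. Grm2 (0.31, adjusted p = 0.436) and Gabbr2 (0.21, adjusted p = 0.431) were also separated, both RS IP above both naive IP, as 25.1% of all genes were. Grm4 stood at -0.16 (adjusted p = 0.626) and Grm5 at -0.10 (adjusted p = 0.734), both RS IP below both naive IP, as in 21.2% of all genes. The other changes were -0.17 for Grm8, -0.07 for Grm7 and -0.06 for Gabbr1 (adjusted p of 0.632, 0.874 and 0.879), with overlapping libraries.

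**Figure D3:**
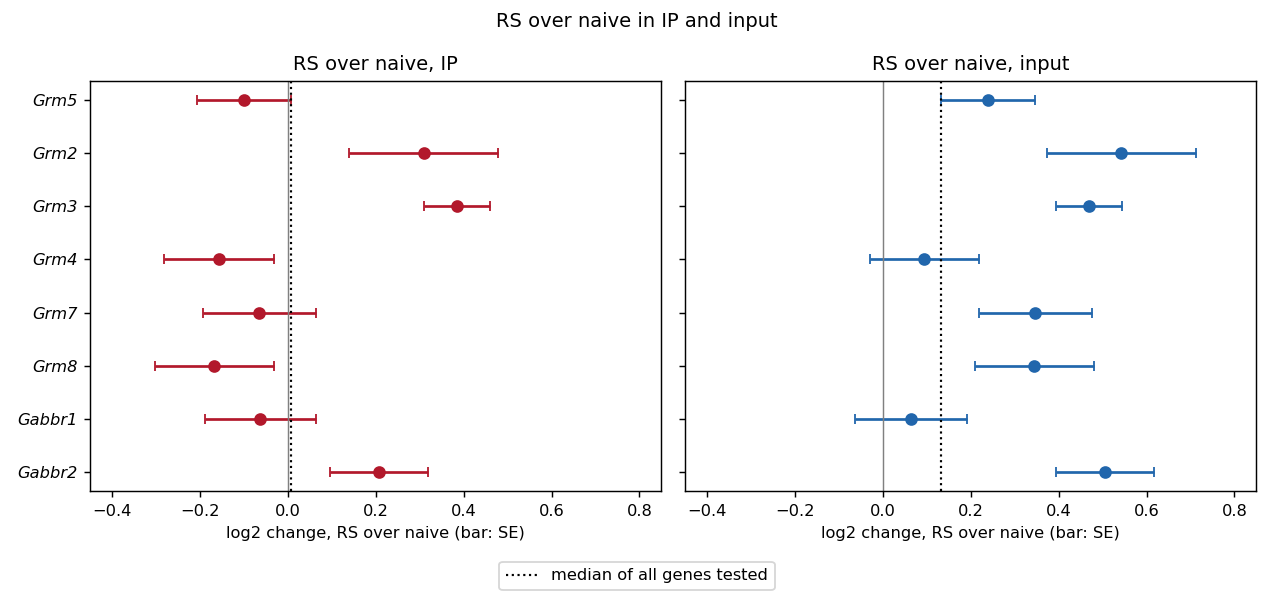
Log2 change of RS over naive (horizontal axis, bar: SE) for 8 receptor RNAs in IP and in input, with the median of all genes tested as a dotted line. Grm3 was at 0.38 in IP and 0.47 in input, and all 8 points lay above 0 in input against 3 in IP.

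The summed level of markers of astrocytes, cells known to make Grm3, moved the same way. The 10 markers summed to 1956 to 1991 TPM in RS IP, 1534 to 1572 TPM in naive IP, 1835 to 1906 TPM in RS input and 1623 to 1641 TPM in naive input, and none was at 0. Of the 10, 6 were called higher and 0 lower in RS than in naive IP (median log2 change 0.50), against 1.98% and 0.327% of all genes tested. In input 7 were called higher and 1 lower (median 0.56), against 20.3% and 8.21%. S100b went the other way there, at 97.3 and 101 TPM in RS input and 125 and 129 TPM in naive input. Their part in the higher Grm3 was not tested.

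**Figure D4:**
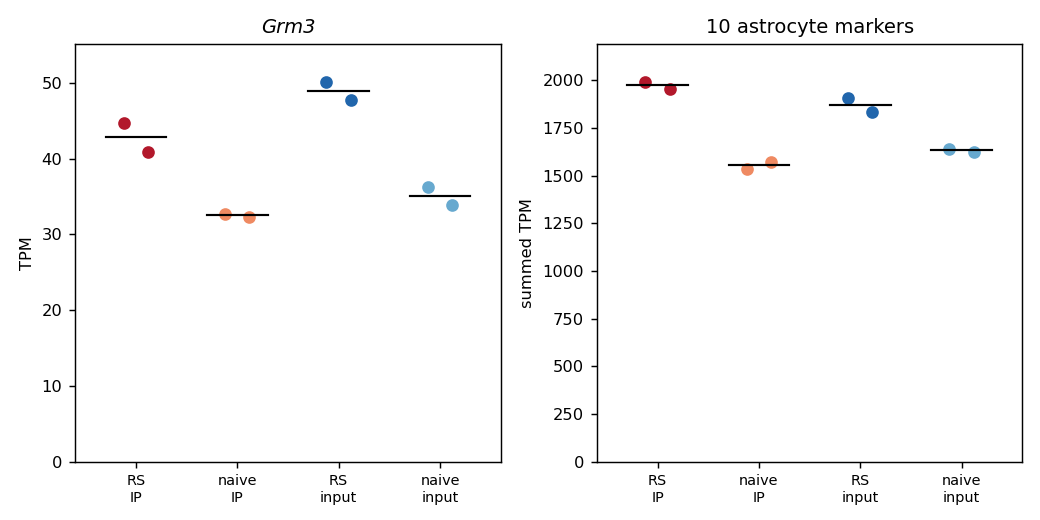
TPM of Grm3 (left) and summed TPM of 10 astrocyte markers (right) in the 2 libraries of each group (points) and as the group mean (bar), with vertical axes from 0. Both were higher in RS than in naive libraries of the same fraction, while RS IP lay below RS input for Grm3 and above it for the markers.

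Ratios between receptors within a library do not depend on how the library is scaled, and are given as a description, since an exact permutation test of 2 against 2 libraries cannot reach a p of 0.05. The ratio of Gabbr1 to Gabbr2 was 12.8 to 13.2 in RS IP, 15.2 to 16.8 in naive IP, 8.86 to 10.9 in RS input and 13.2 to 14.8 in naive input. RS lay below naive in both fractions, and IP above input in both conditions. The ratio of Grm4 to Grm7, both group III, was 2.59 to 3.10 in RS IP, 2.98 to 3.06 in naive IP, 1.37 to 1.45 in RS input and 1.71 in both naive inputs. Grm4 thus outnumbered Grm7 more in every IP than in every input. The ratio of Grm3 to Grm2, 4.18 to 5.64 in RS IP, 4.52 to 4.89 in naive IP, 5.41 to 6.84 in RS input and 5.73 to 7.93 in naive input, overlapped between RS and naive mice.

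Within the summed TPM of the 6 Grm genes followed here that had RNA, Grm3 took 49.8% to 52.2% in RS IP, 41.6% to 44.9% in naive IP, 46.3% to 47.3% in RS input and 43.7% to 44.0% in naive input, higher in RS than in naive mice in both fractions. Grm4 went the other way, with 18.2% to 19.6% in RS IP, 22.3% to 25.05% in naive IP, 15.5% to 17.1% in RS input and 18.9% to 20.8% in naive input. Grm7 took 6.33% to 7.02% in RS IP, 7.49% to 8.20% in naive IP, 11.3% to 11.8% in RS input and 11.1% to 12.1% in naive input. Every IP thus held a smaller share of Grm7 than every input.

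**Figure D5:**
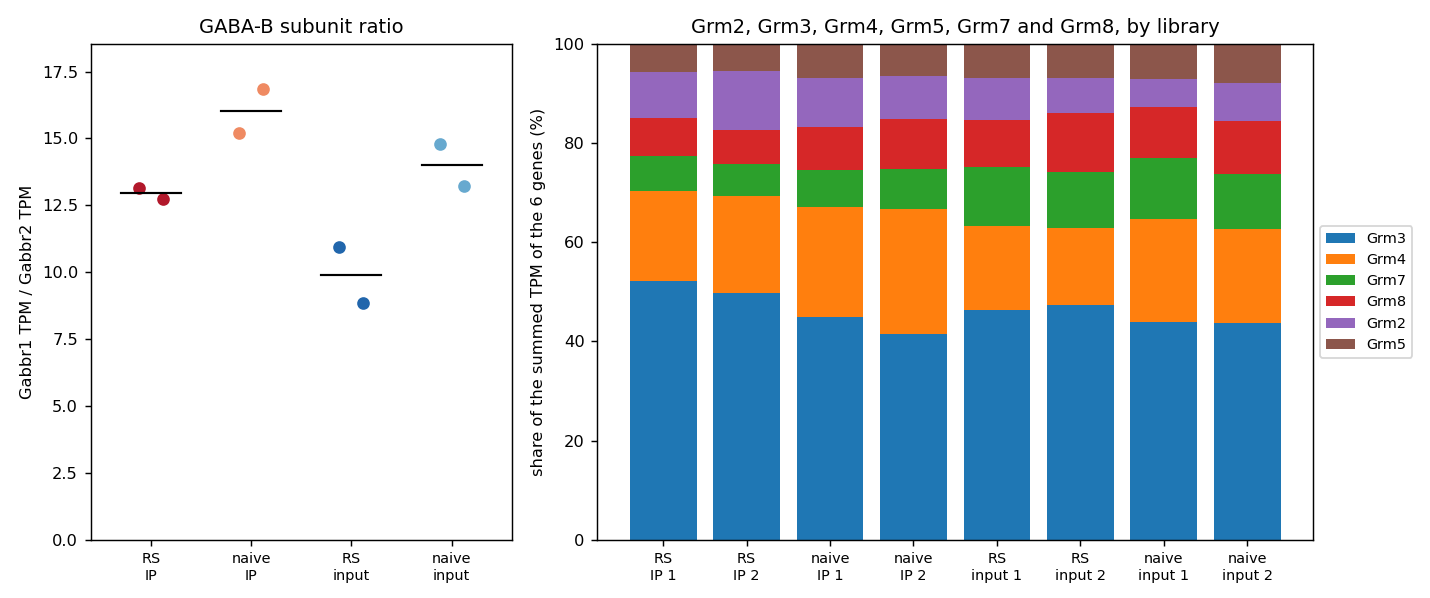
Ratio of Gabbr1 to Gabbr2 TPM in each library with the group mean (left, axis from 0), and share of each of 6 Grm genes in their summed TPM for each library (right). The ratio was lowest in RS input, at 8.86 to 10.9, and the share of Grm3 highest in RS IP, at 49.8% to 52.2%.

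The genes that work with these receptors were followed as 8 lists of 76 genes, of which 74 were tested. In RS mice 5 were called higher and 55 lower in IP than in input, and in naive mice 7 higher and 47 lower, where 17.8% and 54.9% (RS) and 17.4% and 49.2% (naive) of all genes were. Median-of-ratios scaling gave 15 higher and 28 lower in RS mice and 19 and 21 in naive mice, and length and GC correction 24 and 23 in RS and 17 and 24 in naive mice. Between RS and naive mice, 4 were higher and 0 lower in IP, where 1.98% and 0.327% of all genes were, and 31 higher and 1 lower in input, where 20.3% and 8.21% were. The 31 and 1 in input became 18 and 2 under median-of-ratios scaling and 11 and 3 after length and GC correction. The change of enrichment passed for 2 higher and 11 lower, and for 0 of the 74 with the pool as a block.

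Among the effectors and scaffolds of Grm5, all 9 Gq signalling genes tested were lower in IP than in input of RS mice and 8 in naive mice. Of all genes tested, 54.9% (RS) and 49.2% (naive) were lower. Median-of-ratios scaling called 4 of the Gq genes lower and 1 higher in each condition. Itpr1, the calcium release channel of the endoplasmic reticulum, had a log2 change of -1.30 ± 0.13 (adjusted p = 5.33e-05) in RS and -1.18 ± 0.13 (adjusted p = 0.000138) in naive mice. Under median-of-ratios scaling it was at -0.82 in both conditions. After length and GC correction it was at -0.40 in RS (adjusted p = 0.0278) and -0.55 in naive mice (0.00739). Gna11, a Gq-class alpha subunit, stood at -1.18 in RS and -0.77 in naive mice. The scaffold Homer1, which ties group I receptors to Itpr1, was higher in naive IP by 1.02 ± 0.12 (adjusted p = 0.000144). Its mean was also higher in RS IP, at 17.2 TPM, than in RS input, at 11.4 TPM. In RS against naive input, 5 Gq genes were higher and 0 lower, where 20.3% and 8.21% of all genes tested were. Among the 5 was Prkcb, a protein kinase C, at 0.72 ± 0.08 (adjusted p = 0.00167). Homer1 was also higher, at 0.60 ± 0.12 (adjusted p = 0.00909, up to 0.0543 without RS input 1 or naive input 2). After length and GC correction 2 Gq genes were called higher, and Homer1 was at 0.39 (adjusted p = 0.0669).

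Of the 9 genes for Gi/o proteins, through which the other receptors act, 6 were lower in RS IP than in RS input and 1 was higher. In naive mice 6 were lower and 2 higher. Of all genes tested, 54.9% (RS) and 49.2% (naive) were lower and 17.8% and 17.4% higher. Median-of-ratios scaling called 5 lower and 3 higher in RS and 4 and 3 in naive mice. Length and GC correction called 6 lower and 3 higher in RS and 5 and 2 in naive mice. Gnao1, the alpha subunit most abundant in brain, was among the higher ones in naive mice (0.72 ± 0.06, adjusted p = 2.53e-05). Its mean was also higher in RS IP, at 243 TPM, than in RS input, at 170 TPM. The beta subunit gene Gnb1 was lower in RS (-1.03 ± 0.06, adjusted p = 2.66e-06) and naive mice (-0.82). Of 4 GIRK channel genes, Kcnj3 was higher in naive IP (0.62 ± 0.13, adjusted p = 0.0037) and Kcnj9 lower in both conditions (-0.34 in RS and -0.39 in naive mice), though not under median-of-ratios scaling, and after length and GC correction it was called higher in RS mice (0.26, adjusted p = 0.0192). None of the 4 was called between RS and naive mice in either fraction. Of 7 adenylyl cyclase genes, 6 were lower in RS IP and 5 in naive IP, where 54.9% and 49.2% of all genes were. Higher in RS than in naive input were 3, against 20.3% of all genes tested. Among the 3 was Adcy5, the main cyclase of striatal neurons (0.52 ± 0.10, adjusted p = 0.00704). Median-of-ratios scaling called 0 higher and 3 lower in RS IP and 2 and 2 in naive IP, and length and GC correction 2 and 1 in each. In RS against naive input 2 were higher under median-of-ratios scaling and 0 after length and GC correction, where Adcy5 stood at 0.23 (adjusted p = 0.0821).

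Of the GABA-B auxiliary and binding proteins, 6 of 7 were tested. App and Ajap1, whose products bind the N terminus of Gabbr1, went apart, App at -1.22 ± 0.05 (adjusted p = 1.18e-06) and Ajap1 at 0.32 ± 0.12 (adjusted p = 0.0402) in RS IP over input, and -0.71 and 0.59 in naive mice. With the pool as a block Ajap1 did not pass in RS mice (adjusted p = 0.0723). Kctd16, an auxiliary subunit that binds the tail of Gabbr2, was higher in RS than in naive input by 0.55 ± 0.16 (adjusted p = 0.0371), though not under median-of-ratios scaling (0.41, adjusted p = 0.121) or without any one of 5 libraries (both naive IP, both RS input, naive input 1; adjusted p up to 0.181).

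Of 14 mGluR scaffolds and binding partners, 9 were lower and 1 was higher in RS IP than in RS input, and 8 were lower and 1 higher in naive mice. Of all genes tested, 54.9% (RS) and 49.2% (naive) were lower and 17.8% and 17.4% higher. Median-of-ratios scaling called 3 lower and 3 higher in each condition, and length and GC correction 2 lower and 5 higher in RS and 3 lower and 4 higher in naive mice. Elfn1, a synaptic adhesion protein that recruits Grm7 across the cleft, was the 1 gene of the 74 that was lower in RS than in naive input, at -0.64 ± 0.15 (adjusted p = 0.0168), and -0.75 under median-of-ratios scaling. Its call was lost without RS input 1, RS input 2 or naive input 1 (adjusted p up to 0.102). Ncdn, a cytosolic partner of Grm5, was lower in IP in RS (-0.66) and naive mice (-0.59). Its change was smaller under median-of-ratios scaling, at -0.15 in RS (adjusted p = 0.0435) and -0.21 in naive mice (0.0118). After length and GC correction it was -0.11 in RS (adjusted p = 0.0194) and -0.23 in naive mice (0.000759).

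Of 12 regulators of signalling and desensitisation, 11 were lower in RS IP and 9 in naive IP, against 54.9% and 49.2% of all genes tested. Median-of-ratios scaling called 6 lower and 1 higher in RS IP and 5 and 2 in naive IP. The receptor kinase gene Grk3 was lower, at -2.15 ± 0.10 (adjusted p = 1.69e-06) in RS and -1.56 ± 0.10 (adjusted p = 1.09e-05) in naive mice. Rgs4, which speeds the switching off of Gi/o and Gq, was higher in RS than in naive mice in IP (0.51 ± 0.06, adjusted p = 0.00633) and in input (0.64 ± 0.06, adjusted p = 0.00119). The call in IP was lost without RS IP 1, naive IP 1 or naive IP 2 (adjusted p up to 0.0645). Rgs2, a regulator of Gq, was higher in RS IP (0.42 ± 0.07, adjusted p = 0.0211), and did not pass without any one of the 4 IP libraries (adjusted p up to 0.135).

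Genes of glutamate and GABA supply and uptake gave 9 of 13 higher and 0 lower in RS than in naive input, against 20.3% and 8.21% of all genes tested. The numbers for this list were 7 and 0 under median-of-ratios scaling and 6 and 1 after length and GC correction. Glul, the astrocytic glutamine synthetase, was higher by 1.02 ± 0.13 (adjusted p = 0.00215). The astrocytic glutamate transporters Slc1a2 (0.66 ± 0.10, adjusted p = 0.0131) and Slc1a3 (0.32 ± 0.06, adjusted p = 0.0324) were the 2 of this list higher in RS than in naive IP, and both also stand in the astrocyte list above. Slc1a2 was lost without RS IP 1, RS IP 2 or naive IP 1 (adjusted p up to 0.113), and Slc1a3 without any one of the 4 IP libraries or either naive input (up to 0.173). Slc17a7, the vesicular glutamate transporter of cortical and hippocampal neurons, was higher in RS input by 0.44 ± 0.06 (adjusted p = 0.00248).

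The genes most like Grm3 across the 8 libraries, by Pearson's r of log2(TPM + 1) among 9829 genes with a mean of at least 5 TPM, were Acsl3 (0.989) and Bhlhe40 (0.980), and 14 genes reached 0.95. For Grm7 they were Zfp37 (0.997) and Ankle2 (0.995), and 2037 genes reached 0.95. For Gabbr2 they were Rcc2 (0.989) and Gm2a (0.987), with 95 genes at 0.95 or more. The libraries share groups, fractions and scale, so these values are descriptions, and the pattern of Grm7 was one that many genes had.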

How the data were processed

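RNA of pS6 immunoprecipitate and input was sequenced (SMARTer cDNA, HiSeq2500) by the authors. The deposited values, 1 column per library in files named FPKM, each summed to 1000000 and were taken as TPM. The labels name STAR and DESeq2, the study describes TopHat and Cufflinks, both with mm10, and which made the columns is not stated. TPM keep no read number, so depth is unknown and precision rests on 2 pools per group. The labels speak of 3 pools per group, and 2 were analysed here. They place the killing 1 h after restraint, the methods directly after it, and this was not settled.

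Entries turned into dates (26) were left out, and genes with at least 1 TPM in at least 2 libraries were kept (14365). limma 3.58.1 (R 4.3.3) was used to fit the 4 group means of log2(TPM + 1), all 8 libraries together (eBayes with a trend; degrees of freedom were 4 residual, 3.92 prior), with two-sided tests, Benjamini-Hochberg adjustment over all genes kept and calls at an adjusted p under 0.05. Folds on this scale understate changes of low genes. P-values measure the spread between pools, partly borrowed from other genes. The script was tested on simulated data. Transcript lengths and coordinates came from GENCODE M21 (GRCm38, the same assembly as mm10), with a length for 99.1% of genes.

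Per the labels, RNA for the input was saved from the lysate used for the IP, so equal numbers were taken to pair IP and input within a condition. Differences between pools correlated across genes between IP and input with r of -0.0457 (RS) and -0.0637 (naive). Equal numbers in RS and naive mice mark different mice and were not treated as pairs (r of -0.0531 in IP and 0.159 in input). Alternatives were other scaling, pseudocounts of 0.1 and 5, other filters, a spread without trend, the compared libraries alone, a replicate block, a length and GC correction, and leaving out each library. Both corrections together with the block were added after seeing the data. The rule for named genes took all 9 receptors, up to 4 called genes per list and comparison with the largest moderated statistic (some are not named), and the 2 most similar genes of 3 receptors. Members and lists were chosen with earlier results of these data known.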

Additional observations from a re-analysis of the deposited data

How the results depend on the processing

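Depth is unknown for TPM, so the spread between 2 pools limits every call. Of 720 recomputed receptor changes, 590 kept direction and side of the threshold, 54 no longer passed, 14 newly passed and 62 changed sign. No cause of a change was tested. The pairing with a replicate block left 4 receptors lower in RS IP than input (Grm3 lost) and 1 in naive mice, and changed no other receptor call of the paired comparisons. For all genes it called 78 changes of enrichment in place of 970, where no filter gave 246, no trend in the spread 35 and leaving out 1 library other than RS input 2 gave 24 to 504. Between RS and naive mice, where equal numbers are not pairs, the block left 0 receptors higher in IP and 2 in input (Grm2 lost). Grm3 in IP was also lost (0 higher) with no filter, with no trend in the spread and with only the libraries compared, as was Grm2 in RS over naive input under the same settings. With no trend in the spread, 2 receptors were lower in naive IP than input, Grm5 being the second.

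Median-of-ratios scaling called 4 higher and 1 lower in IP over input of RS mice and 4 and 0 in naive mice. With the replicate block as well, added after seeing the data, the numbers were 3 and 1 in RS and 3 and 0 in naive mice. Of 14365 genes, the scaling without the block called 4795 higher and 4477 lower in RS and 4432 and 4117 in naive mice. Signs turned, with and without the block, for Gabbr1 (0.33), Grm3 (0.31) and Grm4 (0.39) in RS mice. In naive mice they turned for Gabbr1 (0.33), Gabbr2 (0.12), Grm3 (0.27), Grm5 (0.11) and Grm8 (0.10). The change of enrichment turned for Gabbr1 (0.00111) and Grm3 (0.044). In RS against naive input Gabbr1 (-0.083) and Grm4 (-0.045) turned. The share of higher among all genes called for the change of enrichment was 77.8% in place of 48.8%.

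Length and GC correction called 6 higher and 1 lower in IP over input of RS mice and 6 and 0 in naive mice. With the replicate block as well, added after seeing the data, the numbers were 4 and 0 in RS and 6 and 0 in naive mice. Of 14240 genes, the correction without the block called 3821 higher and 4634 lower in RS and 3590 and 4372 in naive mice. Signs turned, with and without the block, for Gabbr1 (0.59), Gabbr2 (0.28), Grm3 (0.27), Grm4 (0.55) and Grm5 (0.27) in RS mice. In naive mice they turned for Gabbr1 (0.52), Gabbr2 (0.37), Grm3 (0.24), Grm5 (0.34) and Grm8 (0.19). The change of enrichment turned for Gabbr1 (0.076) and Grm3 (0.030). In RS against naive input 1 receptor (Grm3) was called higher, and Gabbr1 (-0.20), Grm4 (-0.18) and Grm5 (-0.031) turned. Over all genes, 12.9% were called there in place of 28.5%, and 2.35% in place of 6.75% for the change of enrichment.

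Without RS input 1, naive input 1 or naive input 2, 1744 to 2036 genes were called between RS and naive input in place of 4096, and without any IP library 103 to 137 between RS and naive IP in place of 332 (208 with no trend, 175 with only the libraries compared). Leaving out 1 library at a time left 0 to 0 receptors higher in RS than naive IP and 1 to 3 in input (1 without RS input 1 or naive input 1). Changes that crossed 0 were Gabbr1 (-0.38, called without RS input 2, to 0.026 in IP over input of RS and -0.13 to 0.030 of naive mice, -0.33 to 0.077 for the change of enrichment, -0.14 to 0.019 for RS over naive in IP and -0.14 to 0.27 in input). So did Grm2 (-0.064 to 0.30) and Grm4 (-0.21 to 0.018) in IP over input of RS mice, Grm4 (-0.020 to 0.21) in RS over naive input and Grm7 (-0.16 to 0.028) in RS over naive IP.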
